A study of Rattus norvegicus with 24 samples.

Results

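Bdnf (ENSRNOG00000047466), which encodes brain-derived neurotrophic factor, and Ntrk2 (ENSRNOG00000018839), which encodes its receptor TrkB, were followed through the dorsal root ganglia (DRG) of rats with and without spinal cord injury (SCI). They are 2 of the 24613 gene rows of the count matrix and were taken by their Ensembl identifiers and not by a threshold on their values. The matrix gives identifiers without names, and the pairing of these identifiers with Bdnf and Ntrk2 was taken as given and could not be checked against a table here. The DRG hold the cell bodies of sensory neurons, and the study asked how their transcriptome below a spinal injury changes with the injury and with exercise. Each of the 24 samples was 1 adult female Sprague Dawley rat, whose DRG from T11 to L4 were pooled from both sides, so that levels of single segments or sides were not measured.

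The 5 groups were No SCI (naïve rats, n = 4), CONT SCI (a contusion of the cord at T2 with an impact of 25 g-cm, n = 6), TX SCI (the cord fully transected at T2, n = 4), CONT SCI + SWIM (the contusion followed by swimming, n = 5) and CONT SCI + SWW (the contusion followed by shallow water walking, n = 5). The exercised rats trained for 10 weeks. Rats of every group, the naïve ones included, lived in small cages that restrict movement. Tissue was taken at 11.5 weeks after surgery in CONT SCI, at 13.5 weeks in both exercised groups and at 8.5 weeks in TX SCI. For No SCI, which had no injury, the time is given as 11.5 weeks too. Time of collection and group therefore cannot be told apart in any comparison of TX SCI or of an exercised group with another group, except between the 2 exercised groups.

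BDNF is a secreted neurotrophin. In the DRG it is made mainly by a part of the small and medium neurons, many of them nociceptors, is carried along the axon towards the spinal cord and the periphery, and modulates synapses in the dorsal horn. TrkB is a receptor tyrosine kinase. Full-length TrkB signals through its kinase domain, while truncated forms from the same gene lack that domain and are common in glia. The Bdnf gene has several promoters, each with its own first exon spliced to a shared coding exon, and one of them is known for its response to calcium and neuronal activity. RefSeq lists 11 transcripts of Bdnf and 14 of Ntrk2. Counts per gene add all transcripts together, so neither the start site of Bdnf nor the full-length and truncated forms of Ntrk2 were told apart here.

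The RefSeq promoter table (GRCr8) held 6 windows for Bdnf and 0 for Ntrk2. In the 250 bases before each start, both strands were searched for the cAMP response element TGACGTCA, for its half-site TGACG and for the E-box CACGTG. No Bdnf window held the full element or the E-box, which 1.59% and 5.59% of all 33469 windows held. The half-site, which 18.2% of all windows held, was present in 1 of the 6 Bdnf windows. That window is shown because it is the only Bdnf window with a match, although 1 of 6 is near the share over all windows. It lies at chr3:116637608-116637857 on the plus strand of GRCr8, a later build than the Rn6 used for the counts, and the capitals mark the half-site, which reads CGTCA on this strand and begins 35 bases before the start.

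Bdnf: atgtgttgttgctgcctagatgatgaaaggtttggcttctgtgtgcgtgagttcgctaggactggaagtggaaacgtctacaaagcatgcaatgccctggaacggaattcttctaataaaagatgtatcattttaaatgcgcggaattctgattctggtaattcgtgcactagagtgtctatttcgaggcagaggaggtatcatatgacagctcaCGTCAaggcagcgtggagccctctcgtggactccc

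The match describes these letters only. Whether the gene model behind the Bdnf counts below includes this start site was not checked. Any reads from it were not separated from those of the other starts.

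Bdnf was counted with 180 to 615 reads per sample and Ntrk2 with 4532 to 11236, in libraries of 16086670 to 38730307 counted reads. The largest library of the exercised groups had 29995120 counted reads, and the smallest of CONT SCI had 30462475. Library size and exercise therefore cannot be told apart in the comparisons of the exercised groups with CONT SCI. Counting alone gives a relative error of 4.03% to 7.45% for Bdnf and of 0.943% to 1.49% for Ntrk2. Values below are CPM, the reads of a gene scaled to a fixed library size, after TMM scaling over all samples. The level of Bdnf was above that of 43.1% of the genes kept by the filter on low counts and that of Ntrk2 above 96.0%. The rank is by reads per gene and takes no account of gene length, so the levels of ligand and receptor are not compared with each other. The spread between rats of a group beyond counting, estimated by edgeR as the biological coefficient of variation, was 12% for Bdnf and 11% for Ntrk2, against a median of 9.31% over genes.

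Bdnf was lower in both exercised groups than in CONT SCI, a change of -21.4% in each (95% interval of the log2 fold change -0.59 to -0.10 for swimming and -0.59 to -0.11 for walking), and higher in TX SCI than after swimming or walking, by 39.3% and 39.6%. The calls against CONT SCI were lost when certain single rats were left out, 4 of 11 for swimming and 2 of 11 for walking, and those for TX SCI were not. Ntrk2 passed in 0 of the 10 pairs of groups with edgeR and in 0 with DESeq2, and 1 pair had an unadjusted p under 0.05 with edgeR. Over all genes tested, the share that passed with edgeR ran from 2.99% to 43.0% across the 10 pairs, with 32.1% and 43.0% in the comparisons of swimming and walking with CONT SCI and 14.4% and 22.0% in those of TX SCI with the exercised groups. In CONT SCI the levels of both genes were close to those in naïve DRG, and the differences did not pass.

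Among naïve rats, the Bdnf level was 16.9, 12.9, 12.4 and 16.0 CPM. In CONT SCI the lowest of the 6 samples had 12.4, the median was 14.1 and the highest had 18.3 CPM. These groups overlapped over nearly their whole range, and replicate 6 of CONT SCI was the highest of all 24 samples. In TX SCI the 4 samples had 16.2, 17.8, 15.7 and 15.04 CPM. All of them lay above the median of CONT SCI, with the smallest spread of the 5 groups. After swimming the 5 samples had 12.7, 11.1, 10.6, 9.31 and 14.2 CPM. After walking they had 9.74, 11.8, 11.9, 13.2 and 11.3 CPM. Each exercised group had 1 or more samples above the lowest CONT SCI sample, so neither was set fully apart from CONT SCI, while every exercised sample lay below every TX SCI sample.

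**Figure D1:**
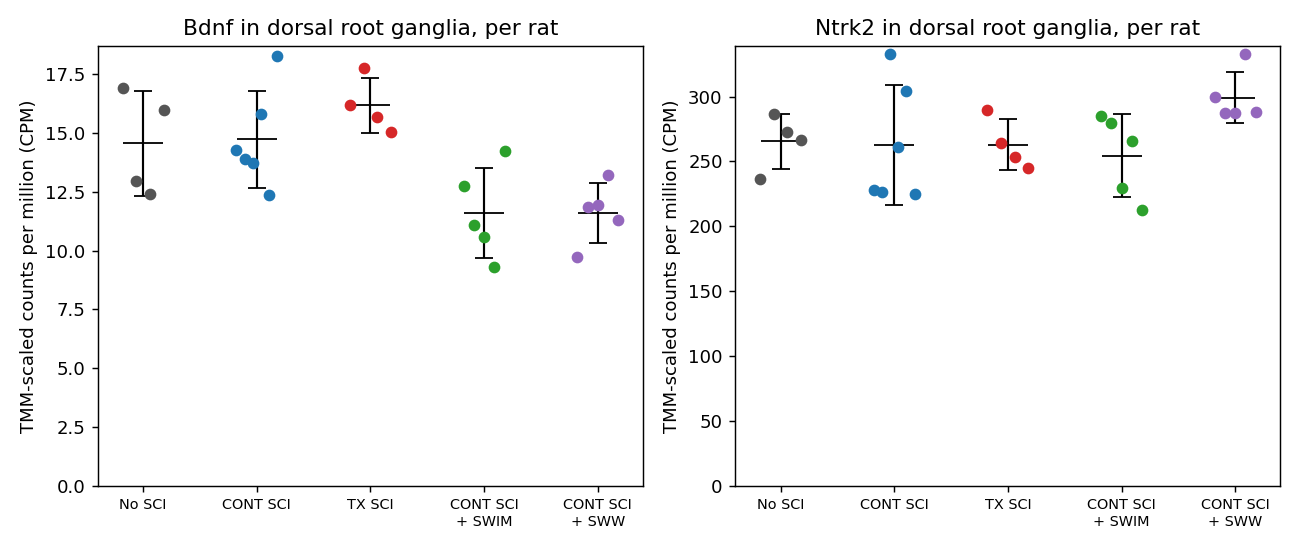
Level of Bdnf (left) and Ntrk2 (right) in each rat, in TMM-scaled CPM, for the 5 groups; points are rats, and the bars give the mean ± SD. The Bdnf points of both exercised groups span 9.31 to 14.2 CPM and lie below all 4 TX SCI points, whereas the Ntrk2 points of most groups overlap.

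The mean Bdnf level, given with the SD over the 4 to 6 rats of a group, was highest at 16.2 ± 1.17 CPM in TX SCI, followed by 14.7 ± 2.05 in CONT SCI, 14.6 ± 2.22 in No SCI, 11.6 ± 1.26 in CONT SCI + SWW and 11.6 ± 1.93 in CONT SCI + SWIM. No neighbours in this order differed past the threshold. The widest step between neighbours was that from No SCI to CONT SCI + SWW, and its adjusted p was 0.0666 (quasi-likelihood test of edgeR with Benjamini-Hochberg adjustment over all genes tested, as for every adjusted p of a gene below).

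For the contusion itself, the log2 fold change of Bdnf in CONT SCI against No SCI was 0.011 (standard error 0.11, 95% interval -0.22 to 0.24, edgeR adjusted p = 0.977). Of all 15126 genes tested in this comparison, 10.4% passed an adjusted p of 0.05, and Bdnf was not among them. Its interval leaves room for a change of about 0.2 on the log2 scale in either direction. In TX SCI against No SCI the log2 fold change was 0.16 (standard error 0.12, interval -0.089 to 0.41, edgeR adjusted p = 0.306), where 34.8% of genes passed. It ranged from 0.091 without No SCI replicate 3 to 0.25 without No SCI replicate 1 and did not pass with any rat left out. Against CONT SCI, TX SCI differed by 0.15 (standard error 0.11, interval -0.077 to 0.38, edgeR adjusted p = 0.276), where 40.4% passed. The TX SCI mean was thus the highest of the 5, but the 95% interval of its difference from either group without exercise included 0.

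For exercise, swimming after contusion went with a log2 fold change of Bdnf of -0.35 against CONT SCI (standard error 0.12, edgeR adjusted p = 0.0270). Walking went with -0.35 (standard error 0.12, interval -0.59 to -0.11, edgeR adjusted p = 0.0192). Both comparisons share the 6 CONT SCI samples, so they are not independent of each other. Bdnf was 1 of many genes called here. Of 15179 genes tested, 32.1% passed for swimming and 43.0% for walking, 19.6% and 24.3% in the direction of lower levels after exercise. Changes larger in size than that of Bdnf were found for 21.2% of genes after swimming and 27.0% after walking, and the median size over all genes was 0.16 and 0.20 on the log2 scale.

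The calls against CONT SCI depended on single rats. Without CONT SCI replicate 6, the highest Bdnf sample, the log2 fold change was -0.28 for swimming and -0.28 for walking (edgeR adjusted p = 0.0700 and 0.0538). The call for swimming was also lost without CONT SCI + SWIM replicate 2 (-0.33, edgeR adjusted p = 0.0582), replicate 3 (-0.31, 0.0662) or replicate 4 (-0.27, 0.0877), and that for walking without CONT SCI + SWW replicate 1 (-0.29, 0.0627). With only these 2 groups in the fit, the call for swimming was lost as well (-0.32, edgeR adjusted p = 0.0560). The direction held in all of these fits. Of the 11 fits with 1 rat left out, 7 kept the call for swimming and 9 for walking, with adjusted p from 0.00937 to 0.0877 and from 0.0110 to 0.0627.

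Against No SCI, the differences of the exercised groups were of similar size and did not pass. The log2 fold change was -0.33 for swimming (standard error 0.13, interval -0.60 to -0.063, edgeR adjusted p = 0.0594) and -0.33 for walking (standard error 0.13, interval -0.60 to -0.066, edgeR adjusted p = 0.0666). Here 28.1% and 22.9% of genes passed. Both values lay close to the threshold. The difference for swimming passed without No SCI replicate 2 (edgeR adjusted p = 0.0457), No SCI replicate 3 (0.0283) or CONT SCI + SWIM replicate 5 (0.0211). That for walking passed without No SCI replicate 2 (0.0457), No SCI replicate 3 (0.0342) or CONT SCI + SWW replicate 4 (0.0484). In each comparison only these 3 of the 9 fits with 1 rat left out passed. The edgeR adjusted p ran from 0.0211 to 0.185 for swimming and from 0.0342 to 0.194 for walking.

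The kind of exercise made no detectable difference to Bdnf. Between swimming and walking the log2 fold change was 0.0013 (standard error 0.12, interval -0.26 to 0.26, edgeR adjusted p = 0.997), in a comparison where 2.99% of genes passed. These groups were collected at the same time. The interval still allows a difference of about 0.26 on the log2 scale, which is near the size of the exercise difference itself.

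The clearest separation of Bdnf was between TX SCI and the exercised groups. The log2 fold change was 0.48 against CONT SCI + SWIM (standard error 0.12, interval 0.23 to 0.73, edgeR adjusted p = 0.0105) and 0.48 against CONT SCI + SWW (standard error 0.12, interval 0.23 to 0.73, edgeR adjusted p = 0.00642). Of 15247 genes tested, 14.4% passed in the first comparison and 22.0% in the second. The groups did not overlap in Bdnf in either comparison, which held for 16.1% and 18.6% of all genes tested. Larger changes in size were found for 9.10% and 10.4% of genes. Both calls were kept in each of the 9 fits with 1 rat left out (adjusted p at most 0.0412 and 0.0272), but TX SCI also differs from these groups in the injury, in training and by the longest gap in collection time. These comparisons share the 4 TX SCI samples.

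**Figure D2:**
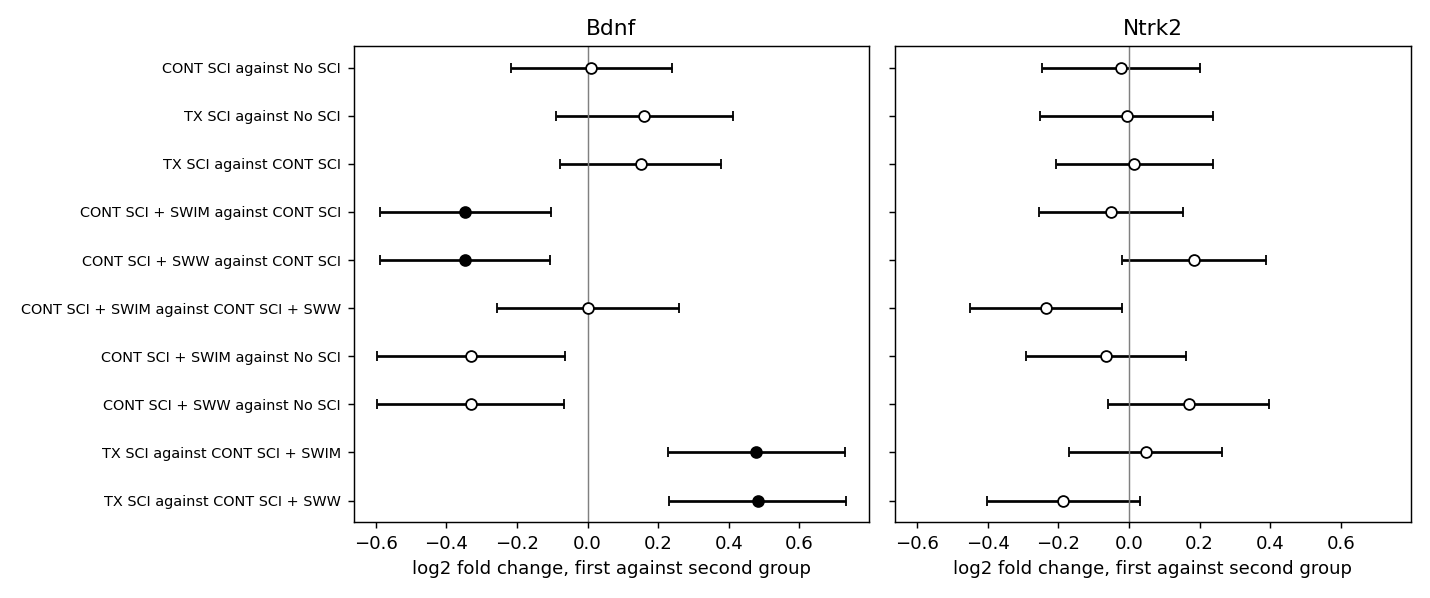
Log2 fold changes of Bdnf (left) and Ntrk2 (right) in the 10 pairs of groups, first-named against second-named group, with 95% intervals; filled points passed an adjusted p of 0.05 in edgeR. The filled points are Bdnf in both exercised groups against CONT SCI and in TX SCI against both exercised groups, and no Ntrk2 point is filled.

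**Figure D3:**
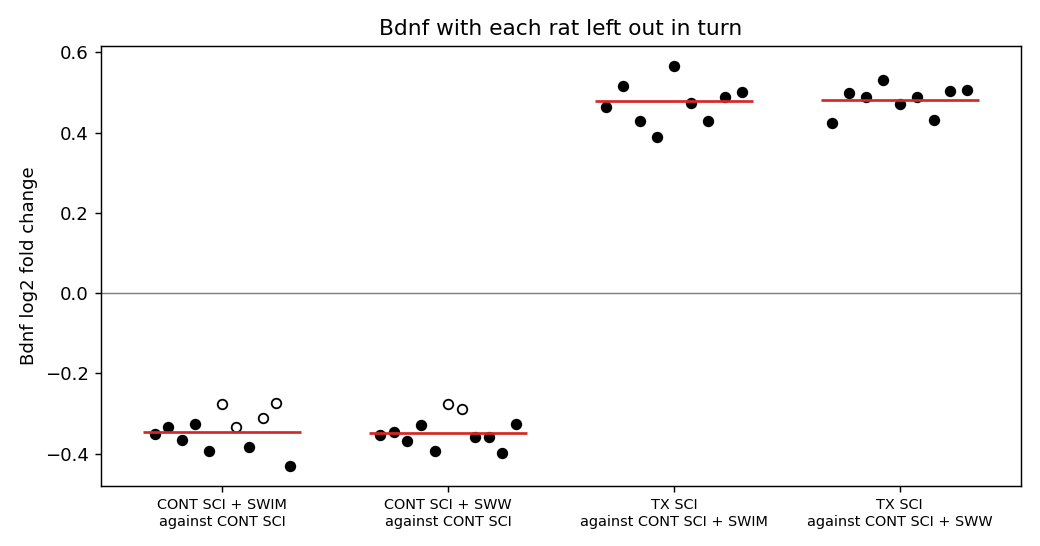
Log2 fold change of Bdnf in the 4 comparisons that passed, with each rat of the 2 groups compared left out in turn; points are fits, filled where the adjusted p was under 0.05, and red lines give the value with all rats. All points keep their side of 0, and the open points, 4 for swimming and 2 for walking, lie in the comparisons with CONT SCI.

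Ntrk2, the receptor gene, had a level of 237, 286, 272 and 267 CPM in the naïve rats. In CONT SCI it ranged from 225 over a median of 244 to 333 CPM. CONT SCI had the widest spread of the groups, with replicates 3 and 5 at 333 and 304 CPM and 3 samples at 225 to 228 CPM. TX SCI had 290, 264, 253 and 245 CPM. After swimming the samples had 285, 279, 230, 266 and 213 CPM. After walking they had 299, 287, 288, 333 and 288 CPM. The walking group was the highest and the least spread for its level, and each of its samples lay above each swimming sample, by a margin of under 3 CPM.

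The mean Ntrk2 level, again with the SD over 4 to 6 rats, was 299 ± 19.7 CPM in CONT SCI + SWW, 266 ± 21.0 in No SCI, 263.0 ± 19.6 in TX SCI, 262.8 ± 46.2 in CONT SCI and 254 ± 31.8 in CONT SCI + SWIM. No neighbours in this order differed past the threshold, nor did the highest and the lowest group. The spread within CONT SCI was 17.6% of its mean, against 6.57% to 12.5% in the other groups, while counting error alone was at most 1.49%.

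The injury comparisons of Ntrk2 were all near 0. The log2 fold change was -0.022 in CONT SCI against No SCI (standard error 0.11, interval -0.25 to 0.20, edgeR adjusted p = 0.949), -0.0067 in TX SCI against No SCI (standard error 0.12, interval -0.25 to 0.24, edgeR adjusted p = 0.971) and 0.016 in TX SCI against CONT SCI (standard error 0.11, interval -0.21 to 0.24, edgeR adjusted p = 0.917). In the last 2 comparisons, 98.0% and 95.8% of genes had a larger change in size than Ntrk2. The intervals leave room for a change of about 0.25 on the log2 scale.

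After exercise the values of Ntrk2 differed in sign between swimming and walking, and none passed. Against CONT SCI the log2 fold change was -0.051 for swimming (standard error 0.099, interval -0.26 to 0.15, edgeR adjusted p = 0.735) and 0.18 for walking (standard error 0.098, interval -0.020 to 0.39, edgeR adjusted p = 0.139). The value for walking passed when CONT SCI replicate 3, the highest Ntrk2 sample of that group, was left out (0.26, edgeR adjusted p = 0.0241). The sign for swimming was not stable: the value was 0.028 without that rat and 0.012 without CONT SCI + SWIM replicate 5. Against No SCI the values were -0.066 for swimming and 0.17 for walking (edgeR adjusted p = 0.694 and 0.291), and they ranged from -0.13 to -0.0028 and from 0.10 to 0.19 with 1 rat left out. Between swimming and walking the log2 fold change was -0.23 (standard error 0.10, interval -0.45 to -0.021), with an unadjusted p of 0.0331 in edgeR's test and an adjusted p of 0.219. The groups did not overlap, as was true of 6.86% of all genes tested. With edgeR's RLE scaling over all samples the highest swimming sample had 286 CPM and the lowest walking sample 285 CPM, so the small gap closed. In TX SCI, Ntrk2 differed by 0.048 from CONT SCI + SWIM and by -0.19 from CONT SCI + SWW (edgeR adjusted p = 0.807 and 0.212). With TX SCI and CONT SCI + SWW alone in the fit, their difference was -0.21 with an edgeR adjusted p of 0.0359.

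Whether ligand and receptor transcripts shifted against each other was read from the ratio of their counts within a library, which needs no scaling between libraries. The ratio compares groups and says nothing of the amounts of the molecules, since gene lengths differ. For each 100 Ntrk2 reads, No SCI had 4.52 to 7.16 Bdnf reads (median 5.27), CONT SCI 4.07 to 8.13 (median 6.11), TX SCI 5.59 to 6.73 (median 6.17), CONT SCI + SWIM 3.50 to 6.70 (median 4.48) and CONT SCI + SWW 3.25 to 4.15 (median 3.98). The walking samples lay below all No SCI and all TX SCI samples and overlapped with CONT SCI. The swimming samples overlapped with every other group, with TX SCI only through replicate 5 at 6.70.

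The log2 ratio in CONT SCI + SWW differed by -0.49 from that in No SCI, a change of the ratio by -29.0%, with means of -4.69 and -4.20. In an exact permutation test, two-sided, this had p = 0.00794, the lowest that 4 against 5 rats can reach, and 0.0397 when adjusted by Benjamini-Hochberg for 10 pairs. It was higher by 0.67 in TX SCI than in CONT SCI + SWW, 59.0% more, with means of -4.02 and -4.69 (the same exact permutation test, p = 0.00794 and 0.0397 adjusted). Both comparisons share the 5 walking samples, so they are not independent of each other. The adjusted p of each rests on both having reached the lowest p possible. Against CONT SCI the walking group differed by -0.54 (exact permutation p = 0.0260 and 0.0866 adjusted). For swimming, the differences were -0.31 from CONT SCI, -0.26 from No SCI and 0.23 from walking (the same exact permutation test, adjusted p = 0.386 for each). With 1 rat left out they ranged from -0.45 to -0.21, from -0.40 to -0.13 and from 0.089 to 0.32, and did not pass. The other 4 pairs, among them CONT SCI against No SCI with 0.047, had adjusted p from 0.139 to 0.838 in this exact permutation test. With any 1 rat left out, both differences that passed kept their direction and had an adjusted p of 0.0866 to 0.111, since fewer rats allow fewer arrangements.

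**Figure D4:**
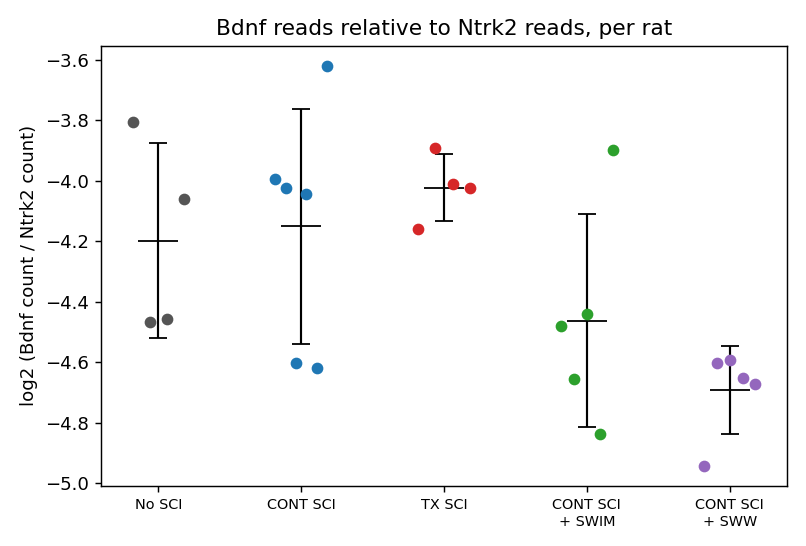
Log2 of the Bdnf count over the Ntrk2 count in each rat by group; points are rats, and the bars give the mean ± SD. The 5 walking samples have the lowest mean, -4.69, and lie below every No SCI and every TX SCI sample.

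Within groups, rats with more Bdnf did not detectably have more or less Ntrk2. Over the 24 rats, the deviations of both genes from their group means (log2 CPM) had a Pearson's r of -0.36 (two-sided permutation test within groups, p = 0.147) and a Spearman's rho of -0.29 (the same permutation test, p = 0.229). Without the 2 samples with the lowest Bdnf, CONT SCI + SWIM replicate 4 and CONT SCI + SWW replicate 1, which lay farthest from the median on the log2 scale, r was -0.37 (permutation test, p = 0.173). Group by group, r was -0.81 in No SCI (n = 4), -0.56 in CONT SCI (n = 6) and -0.37 in CONT SCI + SWIM (n = 5), but 0.44 in TX SCI (n = 4) and 0.46 in CONT SCI + SWW (n = 5), so its sign was not shared by the groups. No correlation of Bdnf with Ntrk2 pooled over groups is given, since the groups differ in Bdnf.

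**Figure D5:**
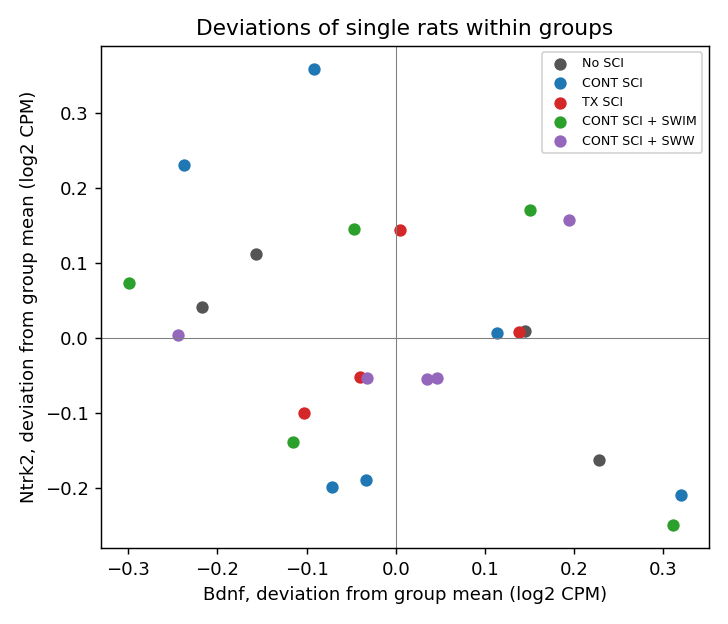
Deviation of each rat from its group mean for Bdnf (x axis) and Ntrk2 (y axis), both in log2 CPM, coloured by group. The points scatter over all quadrants, with CONT SCI replicates 3 and 5 at the upper left and CONT SCI replicate 6 at the lower right.

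The genes whose levels followed Bdnf most closely over the 24 samples, out of 12519 whose log2 CPM averaged 1 or more, were ENSRNOG00000021067 (Pearson's r = 0.78) and ENSRNOG00000026447 (r = 0.76). For Ntrk2 they were ENSRNOG00000058645 (r = 0.90) and ENSRNOG00000050539 (r = 0.90). The files do not pair these identifiers with names. These genes were picked for following Bdnf or Ntrk2 over these samples, and these r values are pooled over groups and hold the differences between groups as well as those between rats, so the correlations and group levels are descriptions only. ENSRNOG00000021067 had mean levels (± SD) of 236 ± 23.8 CPM in TX SCI, 217 ± 24.7 in CONT SCI and 210.5 ± 27.7 in No SCI, and lay at 159 ± 33.1 after walking and 157 ± 12.8 after swimming, the order of groups that Bdnf had. ENSRNOG00000026447 had 8.16 ± 0.988 CPM in TX SCI, 7.82 ± 1.68 in No SCI, 6.64 ± 0.993 in CONT SCI, 5.62 ± 2.89 after walking and 4.81 ± 1.23 after swimming, with No SCI above CONT SCI, unlike Bdnf. ENSRNOG00000050539 had its highest mean after walking, 112 ± 15.6 CPM (SD, n = 5), as Ntrk2 did, and 84.8 to 93.1 CPM in the other groups. ENSRNOG00000058645 was likewise highest after walking, at 52.8 ± 6.12 CPM (SD, n = 5), with 37.3 to 42.3 CPM elsewhere.

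In whole DRG, fewer cells of a type and less RNA per cell cannot be told apart. The other neurotrophins, their receptors, the signalling genes below TrkB and the markers of neurons, glia and other cells were not analysed here, because the annotation table at hand pairs 0 of its 47357 genes with an Ensembl identifier. The labelled tissue was therefore not checked against its markers, and the part of the cell makeup of the samples in the Bdnf differences was not tested.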

How the data were processed

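RNA from the DRG of 24 rats was poly-A enriched and sequenced as stranded single-end reads. The authors aligned reads to Rn6 with STAR, counted them per Ensembl gene with HTSeq 0.10.0 using strand and without mitochondrial genes, and deposited these raw, unscaled counts. Reads shared by overlapping or near-identical genes can be lost from such counts.

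Counts were tested with edgeR 4.0.16 in R 4.3.3 (filterByExpr with a minimum count of 10 and total of 15, TMM, glmQLFTest, 1 mean per group) over the injury set (14 samples), the exercise set (20 samples) or, for TX SCI against exercised groups, all 24 samples. Benjamini-Hochberg adjustment ran over all genes tested, and an adjusted p under 0.05 passed. Standard errors were obtained from the F statistic, as log2 fold change over √F. Ratios were tested by exact permutation (Python 3.11.15, numpy 2.4.6), and the correlation by 100000 permutations within groups. The edgeR step was tested on simulated counts of the injury set only, so that test does not bear on the calls in the exercised groups.

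Each sample is a separate rat. The paper states that rats shared cages in pairs within their group. Cages were not entered in the tests, which treat the rats as independent. Every named gene, list and test was chosen with earlier results of these data known. The rule named both members and, for each, the 2 genes with the highest Pearson's r over the samples, as well as pathway and marker lists that could not be matched to identifiers. Alternatives were RLE scaling, DESeq2 1.42.0, other filters and samples in the fit, a replicate block and each rat left out.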

Additional observations from a re-analysis of the deposited data

Results flagged for a closer look

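Bdnf CPM, Ntrk2 CPM and the log2 count ratio were searched in each of the 5 groups for a rat far from the rest, 15 searches in all. Chance alone gives about 0.75 such rats. There were 2, both in CONT SCI + SWW.

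CONT SCI + SWW replicate 4 had an Ntrk2 level of 333 CPM, against 287 to 299 CPM in the other 4 samples of its group, a gap of 0.737 of the group's range. Without this sample, Ntrk2 in CONT SCI + SWW against CONT SCI did not pass either. CONT SCI + SWW replicate 1 had a log2 count ratio of Bdnf to Ntrk2 of -4.94, against -4.67 to -4.59 in the others, a gap of 0.774 of the range. It also had the lowest Bdnf level of its group, and the call of Bdnf against CONT SCI was lost without it. No cause was tested for either sample.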

How the results depend on the processing

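Of 164 alternative values of Bdnf, 138 kept the direction and the side of the threshold, as did 145 of 164 for Ntrk2, 85 of 106 for the count ratio and both for the correlation. The changes of direction were in differences that did not pass. The higher Bdnf of TX SCI against either exercised group passed under each alternative (log2 fold change 0.39 to 0.57 and 0.42 to 0.53).

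The replicate numbers belong to different rats, and same-numbered samples did not deviate together: the mean correlation of their deviations was -0.18 to 0.056 over the 10 comparisons, and at most 2 samples of a group correlated best with their own number. With the number as a replicate block, Bdnf was at -0.28 for swimming and -0.27 for walking against CONT SCI (edgeR adjusted p = 0.0944 and 0.0787, not passing), at -0.016 in CONT SCI against No SCI and at -0.0040 between the exercised groups (direction changed); no other call of the 2 genes changed under it. With only 2 groups in the fit, Bdnf for swimming against CONT SCI was -0.32 (edgeR adjusted p = 0.0560) and Ntrk2 in TX SCI against walking -0.21 (passing). For swimming against No SCI, Bdnf passed with a filter of CPM above 1 in 4 samples (-0.34) and with all 24 samples in the fit (-0.33). The cause was not tested for any of these.

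With 1 rat left out, Bdnf ranged from -0.43 to -0.27 for swimming and -0.40 to -0.28 for walking against CONT SCI, from -0.41 to -0.26 and -0.40 to -0.26 against No SCI, from -0.085 to 0.075 between the exercised groups, and from -0.058 to 0.11 in CONT SCI against No SCI. Ntrk2 ranged from -0.10 to 0.026 in CONT SCI against No SCI, from -0.063 to 0.030 in TX SCI against No SCI, from -0.048 to 0.093 in TX SCI against CONT SCI, from -0.094 to 0.028 for swimming and 0.14 to 0.26 for walking against CONT SCI, and from -0.011 to 0.091 in TX SCI against swimming. The log2 count ratio ranged from -0.059 to 0.18 in CONT SCI against No SCI, from -0.58 to -0.36 for walking against No SCI and from 0.61 to 0.715 in TX SCI against walking.

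The number of genes called over the whole table moved by over 1.5 times between swimming and walking (454; 251 with the replicate block, 821 with DESeq2, 123 to 811 with 1 rat left out), in CONT SCI against No SCI without No SCI replicate 2 (1041 against 1578) and in TX SCI against swimming and walking without TX SCI replicate 4 (1333 against 2193 and 2026 against 3359). At 180 to 615 reads, counting limits a single Bdnf value to 4.03% to 7.45%. In each group this error was below the spread between rats, most narrowly in TX SCI, with at most 5.44% against 7.2%.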
